A study of Mus musculus with 4 samples.

Results

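The genes described here encode the switch that starts meiotic M phase: the kinase CDK1 (Cdk1), its cyclin B partners (Ccnb1, Ccnb2, Ccnb3), the inhibitory WEE kinases (Wee1, Wee2, Pkmyt1) and the activating CDC25 phosphatases (Cdc25a, Cdc25b, Cdc25c). They were chosen by symbol, and 10 of 10 were found among the 53677 gene symbols counted. The RNA was that of germinal vesicle (GV) oocytes of the mouse, which rest in meiotic prophase. Follicle growth had been stimulated with 7.5 IU of the gonadotropin PMSG 48 h before collection. The study had 2 groups, labelled by genotype as Ctrl and Ell3 KD (knockdown of the elongation factor gene Ell3), with 2 Smart-seq2 libraries each, and each library pooled 5 oocytes. The labels do not state how the knockdown was made, the strain and age of the females, or whether replicate libraries came from different females. The spread behind the p-values is therefore that between these libraries and may be technical.

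CDK1 bound to a B cyclin is the kinase that breaks down the oocyte nucleus and builds the spindle. In the arrested oocyte the complex is held inactive by phosphate groups that WEE kinases place on a neighbouring threonine and tyrosine of CDK1, at codons 14 and 15, and that CDC25 phosphatases remove. Wee2 (also called Wee1b) encodes the WEE kinase that is largely restricted to oocytes, and CDC25B is the phosphatase that mouse oocytes need to resume meiosis. In the oocyte many of these mRNAs are stored and translated later, so that mRNA level and protein level can differ.

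The stretch of the Cdk1 coding sequence that carries these codons is shown because every WEE kinase and CDC25 phosphatase named below acts on it. It covers codons 10 to 20 of the GENCODE transcript, 5′ to 3′, with codons 14 and 15 in capitals.
Cdk1 codons 10 to 20: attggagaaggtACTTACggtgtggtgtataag

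Upstream sequence from the RefSeq promoter table (GRCm38.p6) was used for 7 of the 10 genes. Those of Cdk1, Cdc25a and Cdc25b are shown as 3 genes that passed the test below in different directions. Each run is the 150 bases before the annotated start, 5′ to 3′ on the strand of the gene, and capitals mark CCAAT (the box that NF-Y binds), TTTGAA (the core of the cell cycle homology region, CHR) and TTTGGCG (an E2F-type motif), searched on both strands.
Cdk1, chr10:69352913-69353062, minus strand: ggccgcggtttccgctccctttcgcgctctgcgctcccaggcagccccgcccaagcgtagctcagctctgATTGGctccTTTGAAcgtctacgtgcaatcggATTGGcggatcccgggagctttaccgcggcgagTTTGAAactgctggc
Cdc25a, chr9:109875429-109875578, plus strand: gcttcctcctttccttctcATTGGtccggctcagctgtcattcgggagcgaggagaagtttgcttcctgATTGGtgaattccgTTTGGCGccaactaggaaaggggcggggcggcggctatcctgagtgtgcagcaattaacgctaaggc
Cdc25b, chr2:131186798-131186947, plus strand: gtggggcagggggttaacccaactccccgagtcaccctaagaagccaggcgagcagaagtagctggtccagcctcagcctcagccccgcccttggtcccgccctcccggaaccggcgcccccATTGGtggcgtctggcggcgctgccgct

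In the full window of 250 bases before to 50 after the start, Cdk1 held 3 CCAAT and 2 TTTGAA matches, and Ccnb2 likewise held 3 and 2. Cdc25a held 2 CCAAT matches and the TTTGGCG match, and Cdc25b held 1 CCAAT match. Ccnb1 and Wee2 each held 2 CCAAT matches, and Ccnb3 held no match to these letters. No matches overlapped. Over all 32851 windows of the table, 37.4% held CCAAT, 17.9% held TTTGAA, 6.95% held both and 1.56% held TTTGGCG. Cdk1 and Ccnb2 thus were the genes of the 7 that held both CCAAT and TTTGAA. These matches describe the letters and not factor binding, which was not measured.

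Library totals ran from 45131278 to 48669267 counts for Ctrl and from 65722415 to 89632815 for Ell3 KD, without overlap. The targeted gene, Ell3, was counted 371 and 483 times in the Ctrl libraries and 255 and 181 times in Ell3 KD, a log2 fold change of -1.66 ± 0.14 (SE; Benjamini-Hochberg adjusted p = 6.04e-10 in the quasi-likelihood test of edgeR). Serinc4 covers 65.6% of the Ell3 exons on the same strand, and was counted 8 and 5 times in Ctrl and 11 and 11 times in Ell3 KD. How reads in the shared part were counted is not stated. The 12 oocyte markers (such as Zp3, Gdf9 and Mos) summed to 25150 to 25690 CPM (counts scaled by TMM to a library total of 1000000) in Ctrl and 24710 to 24760 in Ell3 KD, and 3 of them were called higher (Ooep, Oosp1, Npm2) and 3 lower (Gdf9, Nlrp5, Zp1). The 11 granulosa and cumulus markers summed to 53.8 to 56.4 CPM and 49.6 to 51.7 CPM, with 1 called higher (Inha) and 1 lower (Nr5a2). Of these 11, Amh, Foxl2 and Amhr2 were at 0 counts in Ctrl and at or below 0.102 CPM in Ell3 KD. Others were clearly counted. Nr5a2 was at 26.6 and 26.2 CPM in Ctrl and at 22.3 and 22.5 CPM in Ell3 KD. Cyp19a1 was at 18.7 and 17.2 CPM in Ctrl and at 16.2 and 17.9 CPM in Ell3 KD. The 6 theca markers summed to 4.01 to 4.27 and 3.35 to 3.94 CPM, with Hsd3b1 called higher and Insl3 at 0 throughout. The 8 blood and immune markers summed to 2.76 to 3.34 and 1.25 to 1.43 CPM, with Cd68 and Alas2 called lower and the 4 globin genes and Lyz2 at 0. The part of depth and of these markers in the results below was not tested.

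Of the 10 genes, 4 were higher in Ell3 KD (Cdk1, Ccnb3, Cdc25a, Cdc25c), 3 were lower (Wee1, Pkmyt1, Cdc25b) and 3 did not pass the test (Ccnb1, Ccnb2, Wee2). All 10 passed the filter on low counts and lay above 5 CPM. Of all 17879 genes tested, 42.9% were called at an adjusted p under 0.05, 21.1% higher and 21.8% lower, and of those at 5 CPM or more 52.5% were called. A count of 7 of 10 is thus not far from the background. The median log2 fold change of the 10 genes was 0.06, against -0.0024 over all genes tested. With library totals in place of TMM scaling the split was 3 higher and 4 lower, and 43.1% of all genes were called. What set the genes apart was the size of the change: Wee1 nearly halved, whereas no other changed by as much as 1.5-fold.

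**Figure D1:**
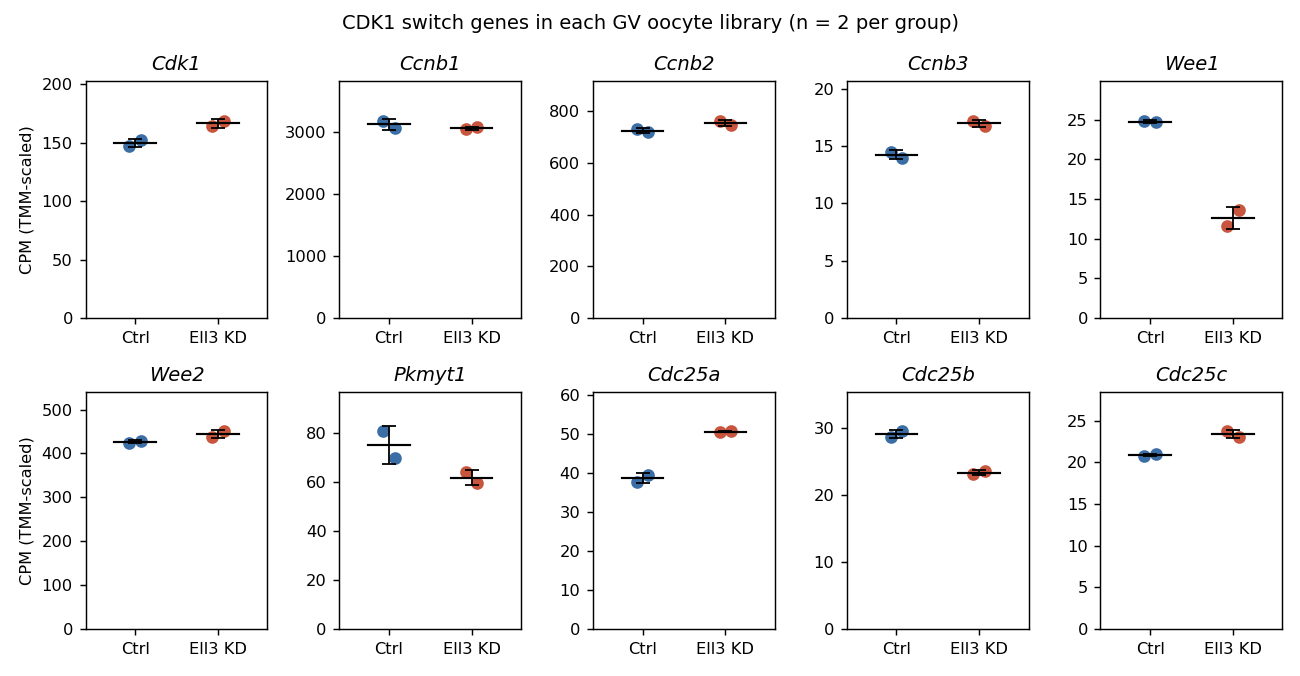
TMM-scaled CPM of the 10 genes in each library (points), with the group mean (line) and SD (bars), n = 2 per group; each axis starts at 0. Wee1 lies at 24.9 and 24.6 CPM in Ctrl against 11.7 and 13.6 in Ell3 KD, while the libraries of Ccnb1 overlap between the groups.

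Cdk1, the catalytic subunit, was slightly higher in Ell3 KD. It was at 147 and 152 CPM in Ctrl and at 164 and 169 CPM in Ell3 KD. Both Ell3 KD libraries lay above both Ctrl libraries, a pattern that 76.4% of genes at 5 CPM or more showed in one direction or the other. The log2 fold change was 0.15 ± 0.04 (SE; adjusted p = 0.00156, edgeR), a 1.11-fold rise. In these bulk pools a change in the RNA of each oocyte and a change in the number of oocytes that hold the RNA cannot be told apart. The gene lies on chromosome 10 from 69335146 to 69352938 (GRCm38, minus strand).

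The B cyclins give CDK1 its activity and are the component that accumulates and is destroyed in each meiotic division. Ccnb1, the major B cyclin of the oocyte, was at 3183 and 3060 CPM in Ctrl and at 3042 and 3078 CPM in Ell3 KD. The groups overlapped in CPM, and the log2 fold change of -0.03 (95% interval -0.08 to 0.02) did not pass the test (adjusted p = 0.382, edgeR). The whole interval lay within a change smaller than 1.2-fold. Scaled by library totals alone it was called lower (-0.07, adjusted p = 0.0258, edgeR).

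Ccnb2, which can stand in for cyclin B1 in mouse oocytes, was at 731 and 719 CPM in Ctrl and at 764 and 747 CPM in Ell3 KD. The Ell3 KD libraries lay higher without overlap, but the log2 fold change of 0.06 (95% interval 0.00048 to 0.12) did not pass the test (adjusted p = 0.0969, edgeR). It passed with limma-voom (adjusted p = 0.0382), with the replicate number as a block (adjusted p = 0.0323, edgeR) and with no filter on low counts (adjusted p = 0.0462, edgeR), at log2 fold changes of 0.06, 0.06 and 0.07.

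Ccnb3, the least abundant of these cyclins, is needed for anaphase of the first meiotic division. It rose from 14.51 and 13.98 CPM in Ctrl to 17.2 and 16.8 CPM in Ell3 KD. The groups did not overlap, and the log2 fold change was 0.26 ± 0.08 (SE; adjusted p = 0.0109, edgeR). The call was lost without Ctrl replicate 2 (adjusted p = 0.0614, edgeR), without Ell3 KD replicate 1 (adjusted p = 0.0803, edgeR) and with DESeq2 (adjusted p = 0.0667). Ccnb1 lies on chromosome 13 (100778650 to 100786570), Ccnb2 on chromosome 9 (70407692 to 70421547) and Ccnb3 on chromosome X (6979652 to 7041619).

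Ccnb1 is the one gene of the 10 with close copies in the annotation. There were 5 pseudogenes whose transcripts aligned to it at 90% identity or more over at least 200 bases, and 3 of them, Ccnb1-ps, Gm12856 and Gm4870, were in the count tables. Ccnb1-ps, at 99.2% identity, was counted 990 and 1173 times for Ctrl and 2281 and 1613 times for Ell3 KD, against 145457, 151045, 269443 and 198976 for Ccnb1. The 3 copies together amounted to 0.991% and 1.15% of the Ccnb1 count in Ctrl and to 1.29% and 1.22% in Ell3 KD. Reads of the copies and of Ccnb1 cannot be assigned with certainty, and how reads that match both were counted is not stated, so the Ccnb1 level is uncertain to an extent that was not tested.

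The WEE kinases inhibit CDK1, and of the 3, Wee1 and Pkmyt1 fell. Wee1, the nuclear kinase found in most dividing cells, was at 24.9 and 24.6 CPM in Ctrl and at 11.7 and 13.6 CPM in Ell3 KD. Both Ell3 KD libraries were far below both Ctrl libraries, and in raw counts Wee1 was lower in the Ell3 KD libraries (1034 and 882) than in Ctrl (1137 and 1216) although these were sequenced more deeply. The log2 fold change was -0.97 ± 0.08 (SE; 95% interval -1.14 to -0.81; adjusted p = 4.56e-10, edgeR), 1.96-fold lower. Its absolute change exceeded that of most genes, at the 99.4th percentile of the genes at 5 CPM or more. Wee1 stayed called in each of 13 alternatives, with log2 fold changes from -1.08 to -0.86. The gene lies on chromosome 7 from 110122046 to 110143286 (plus strand) and shares no exon bases with another annotated gene.

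Wee2, the oocyte kinase, was at 425 and 429 CPM in Ctrl and at 437 and 451 CPM in Ell3 KD. The Ell3 KD libraries lay slightly higher, and the log2 fold change of 0.06 (95% interval -0.0067 to 0.12) did not pass the test (adjusted p = 0.142, edgeR), with adjusted p-values from 0.063 to 1 over the alternatives. A fall of the size seen for Wee1 lies outside this interval. Wee2 lies on chromosome 6 (40439088 to 40466813, plus strand).

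Pkmyt1 encodes MYT1, the membrane-bound member of the family that can also place the phosphate on threonine. It fell from 80.6 and 69.5 CPM in Ctrl to 63.9 and 59.4 CPM in Ell3 KD, with a log2 fold change of -0.28 ± 0.05 (SE; adjusted p = 0.000177, edgeR). The Ctrl libraries differed from each other more than for any other of the 10 genes relative to their mean. Without Ctrl replicate 1 the log2 fold change was -0.17 (adjusted p = 0.00726, edgeR), and without Ctrl replicate 2 it was -0.39 (adjusted p = 3.67e-11, edgeR). Of its exon length 8.76% overlaps Paqr4 on the opposite strand, and Paqr4 had 868, 1003, 1416 and 980 counts. Pkmyt1 lies on chromosome 17 (23726336 to 23736735, plus strand).

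The CDC25 phosphatases, which activate CDK1, went in different directions. Cdc25a, which also acts at entry into S phase, rose from 37.7 and 39.5 CPM in Ctrl to 50.5 and 50.6 CPM in Ell3 KD. The log2 fold change was 0.39 ± 0.05 (SE; adjusted p = 1.3e-06, edgeR), a 1.31-fold rise without overlap of the groups. It was called in 12 of 13 alternatives, and the exception was a coefficient of variation set to 0.2 (adjusted p = 0.586, edgeR).

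Cdc25b, the phosphatase required for the resumption of meiosis, fell from 28.8 and 29.6 CPM in Ctrl to 23.2 and 23.6 CPM in Ell3 KD. The groups did not overlap, and the log2 fold change was -0.32 ± 0.06 (SE; adjusted p = 2e-04, edgeR), 1.25-fold lower. Of its exon length 2.47% overlaps Spef1 on the opposite strand, a gene with 62 to 135 counts per library.

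Cdc25c, which mice can do without, was at 20.8 and 21.0 CPM in Ctrl and at 23.7 and 23.1 CPM in Ell3 KD. Its log2 fold change of 0.17 ± 0.07 (SE) passed the test narrowly (adjusted p = 0.049, edgeR). Leaving out any single library ended the call, with edgeR adjusted p-values from 0.106 to 0.235, as did DESeq2 (adjusted p = 0.173), limma-voom (adjusted p = 0.0549) and library totals (adjusted p = 0.134, edgeR). Of its exon length 12.7% overlaps Gm3550 on the opposite strand, which had 4 to 23 counts. Cdc25a lies on chromosome 9 (109875579 to 109893895) and Cdc25b on chromosome 2 (131186949 to 131198497), both on the plus strand.

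**Figure D2:**
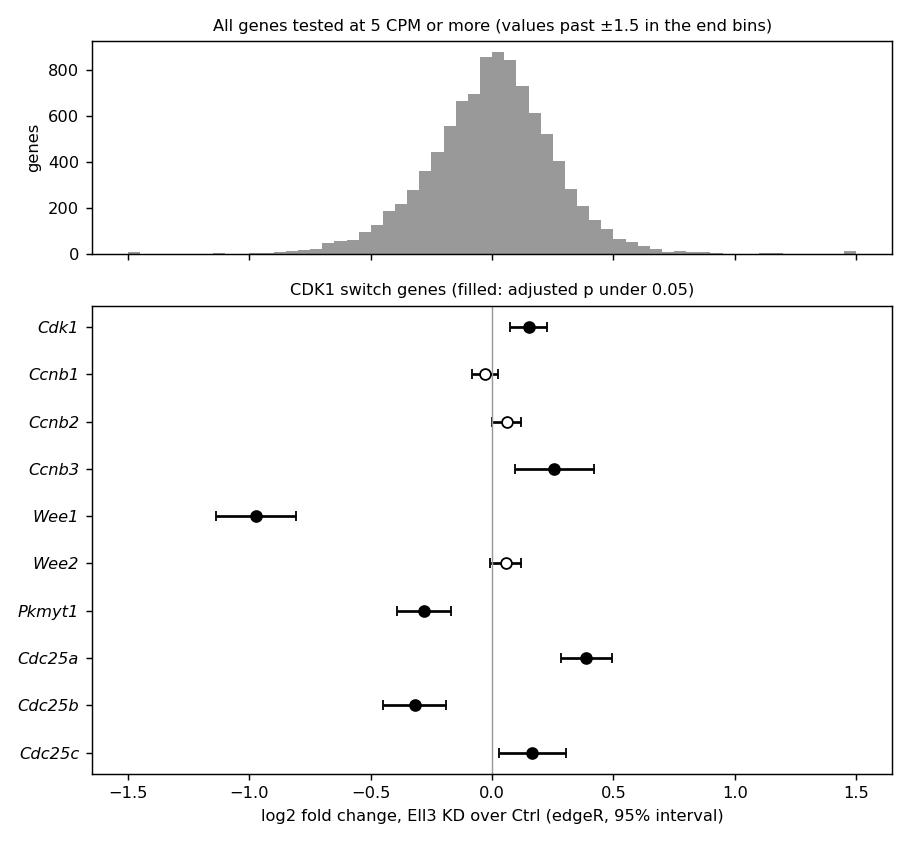
Upper panel: log2 fold changes of Ell3 KD over Ctrl for all genes tested at 5 CPM or more (number of genes per bin). Lower panel: the 10 genes with 95% intervals, filled where the edgeR adjusted p was under 0.05. Wee1 at -0.97 lies in the far lower tail, and the other 9 lie between -0.32 and 0.39. The largest absolute change of these 9, that of Cdc25a, is at the 87.2nd percentile of the genes at 5 CPM or more.

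Changes were also tested against a minimum size. With edgeR's glmTreat, which asks whether a change exceeds 1.2-fold, 2 of the 10 genes were called, Wee1 lower and Cdc25a higher, against 15.4% of all genes. When the coefficient of variation between libraries was set to 0.2 in place of the fitted common value of 0.0421, Wee1 alone was called, against 11.0% of all genes. Cdk1, Ccnb3, Pkmyt1, Cdc25b and Cdc25c were called under neither.

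**Figure D3:**
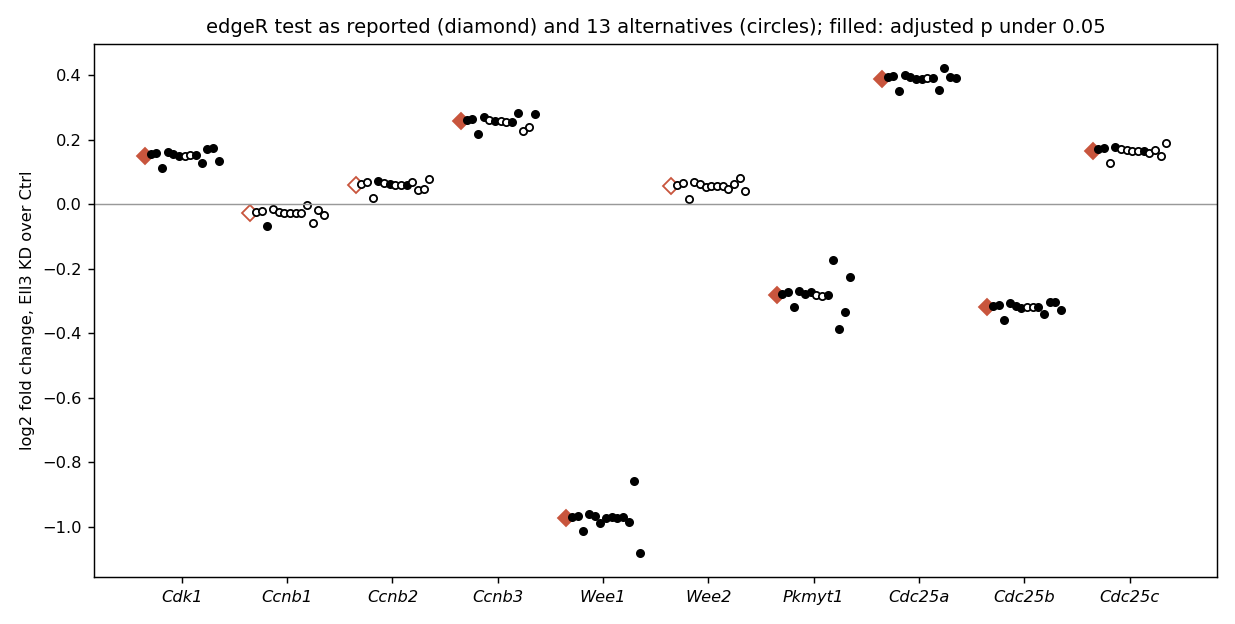
Log2 fold changes of Ell3 KD over Ctrl for the 10 genes in the edgeR test as reported (diamonds) and in 13 alternatives (circles), filled where the adjusted p was under 0.05. No gene changes sign, and Wee1 is filled throughout, at -1.08 to -0.86.

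Levels of different genes were compared per length, as TPM, counts divided by the merged exon length of each gene and scaled to a library total of 1000000. In Ctrl the order was Ccnb1 (2165 ± 57.4 TPM; SD, n = 2 per group, as for all TPM means), Ccnb2 (1385 ± 14.5), Wee2 (398 ± 3.55), Cdk1 (88.8 ± 2.13), Pkmyt1 (60.2 ± 6.19), Cdc25b (22.9 ± 0.477), Wee1 (21.2 ± 0.12), Cdc25a (14.1 ± 0.489), Cdc25c (12.4 ± 0.0838) and Ccnb3 (9.12 ± 0.227). The mRNAs of the main cyclins and of the oocyte WEE kinase were thus more abundant than that of Cdk1 itself, and the CDC25 mRNAs were lower than it, although at the 86.4th to 89.8th percentile of all genes with a length, those at 0 included. No neighbours in this order had overlapping Ctrl libraries, although Cdc25b exceeded Wee1 by only 1.08-fold. In Ell3 KD Wee1 moved from the seventh place to the last (10.2 ± 1.12 TPM), beside Ccnb3 (10.3 ± 0.192), from which it did not differ beyond the spread.

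The lower part of this order depends on the length used. With the longest annotated transcript, Cdc25a (merged length 8023 bases, longest transcript 3755) stood above Cdc25b and Cdc25c in Ctrl and Wee1 fell below all CDC25 genes. With the transcript of the longest coding sequence, Pkmyt1 and Cdk1 overlapped, as did Cdc25c and Cdc25a. The places of Ccnb1, Ccnb2 and Wee2 at the top and of Ccnb3 at the bottom in Ctrl were the same with all 3 lengths.

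**Figure D4:**
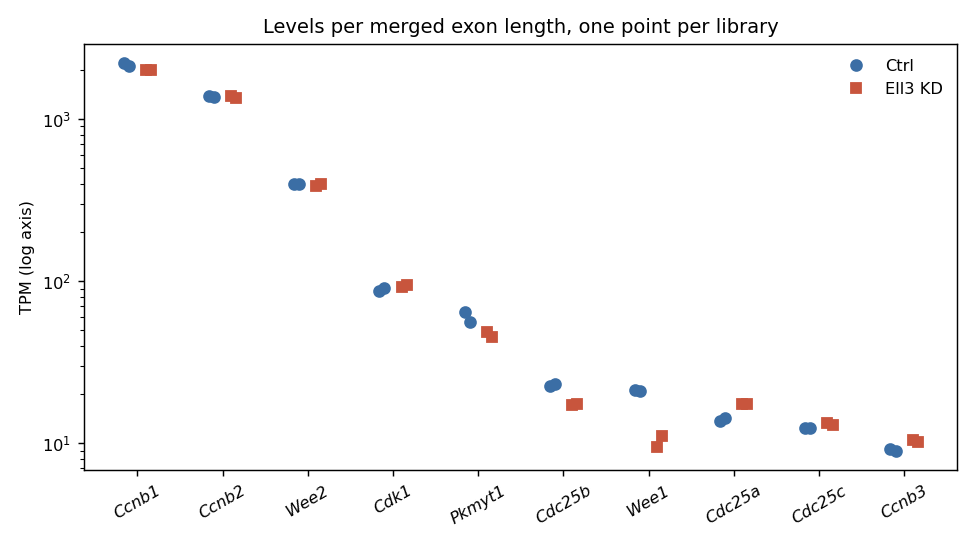
Levels per merged exon length (TPM, log axis) of the 10 genes, ordered by the Ctrl mean, with one point per library (circles Ctrl, squares Ell3 KD). Levels span from 2165 TPM for Ccnb1 to 9.12 TPM for Ccnb3 in Ctrl, and Wee1 shows the widest gap between the groups.

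Within the WEE family, Wee2 made up 82.1% and 83.9% of the summed TPM in Ctrl and 86.9% and 87.6% in Ell3 KD. Wee1 made up 4.42% in each Ctrl library and 2.13% and 2.44% in Ell3 KD. The ratio of Wee2 to Wee1 was 18.6 and 19.0 for Ctrl against 40.8 and 36.0 for Ell3 KD. The oocyte kinase mRNA, already dominant, thus gained further on Wee1. An exact two-sided permutation test over the libraries gave p = 0.333 for this ratio, the smallest value that 2 libraries against 2 allow.

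Within the CDC25 family the balance moved from Cdc25b towards Cdc25a. The ratio of Cdc25a to Cdc25b was 0.609 and 0.621 in Ctrl and 1.01 and 0.996 in Ell3 KD (exact permutation p = 0.333, again the smallest possible). With the longest transcripts it was 1.08 and 1.10 against 1.79 and 1.76, since another length multiplies the ratio by the same factor in every library. The summed WEE level over the summed CDC25 level was 9.90 and 9.53 in Ctrl and 9.25 and 9.45 in Ell3 KD. Here the gap between the groups was smaller than the spread within either. With the longest transcripts the ratio was 6.69 and 6.42 against 5.92 and 6.05, and with those of the longest coding sequence 6.39 and 6.09 against 5.55 and 5.66, where the gap exceeded the spread (exact permutation p = 0.333 for each, the smallest possible). The ratio was thus lower in Ell3 KD with each length, by an amount that depends on the length. Among the B cyclins, Ccnb1 made up 61.1% and 60.6% in Ctrl and 58.9% and 59.7% in Ell3 KD.

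The genes whose pattern over the 4 libraries was most like that of Wee1 were sought among 8885 named genes at 5 CPM or more, by Euclidean distance of log2 CPM centred on each gene's mean. They were Xlr3c (distance 0.11), Acacb (0.114), Pdgfrl (0.159), Acad9 (0.169) and Plscr3 (0.172). Xlr3c, an X-linked gene of a family of similar copies and therefore less certain in count, was at 95.7 and 101 CPM in Ctrl and at 48.0 and 51.6 CPM in Ell3 KD. Of the exon length of Plscr3, 28.3% overlaps Tnk1 on the opposite strand. Acacb encodes an acetyl-CoA carboxylase and Acad9 an acyl-CoA dehydrogenase of mitochondria. With 2 groups of 2 libraries such a pattern is little more than a fall of like size, here log2 fold changes from -1.10 to -0.88.

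Genes that act around the switch were taken from 5 lists, chosen with earlier results of these data known and so described without a test of the lists. Of 65 genes, 64 passed the filter, and 22 of them rose and 14 fell in Ell3 KD, with a median log2 fold change of 0.04. That is 36 of 64 called, against the 42.9% of all genes and the 52.5% of genes at 5 CPM or more given above. By direction, 21.1% of all genes tested were called higher and 21.8% lower. At 5 CPM or more, 2640 of 9704 genes were called higher and 2459 lower. These shares are the background for the counts of each list below. With library totals in place of TMM scaling the split was 21 higher and 21 lower.

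The first list held genes for CDK1 cofactors and activation. Of 6 genes, 5 rose, where 21.1% of all genes tested were called higher, and 2640 of the 9704 at 5 CPM or more. They were Cdk7, Ccnh and Mnat1, which encode the 3 subunits of the CDK-activating kinase, and Cks1b and Cks2, which encode small CDK-binding subunits. Cks2 went from 900 and 899 CPM in Ctrl to 1123 and 1104 in Ell3 KD, a log2 fold change of 0.31 ± 0.03 (SE; adjusted p = 1.95e-09, edgeR), and Cks1b rose by 0.32 ± 0.03 (adjusted p = 1.87e-08, edgeR). Cdk7, Ccnh and Mnat1, named after their values were seen, rose by 0.20, 0.29 and 0.41 (highest adjusted p = 1.76e-05, edgeR). The median log2 fold change of the list was 0.30. Spdya, which encodes the CDK activator Speedy A, fell at a low level from 1.14 and 1.46 CPM to 0.429 and 0.371 CPM (log2 fold change -1.69 ± 0.36; adjusted p = 0.000491, edgeR). Of its exon length 18.3% overlaps Trmt61b on the opposite strand, with 0 to 5 counts per library. On the same strand 11.4% overlaps the pseudogene Mettl4-ps1, with 0 to 3 counts per library.

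Of 9 genes for other cyclins, CDK2 and CDK inhibitors, 2 rose and 2 fell. Ccno, which encodes cyclin O and was the most abundant of them, fell from 458 and 463 CPM to 392 and 380 CPM (log2 fold change -0.26 ± 0.03; adjusted p = 2.71e-07, edgeR), and Cdk2 had a log2 fold change of -0.28 (adjusted p = 0.000151, edgeR). The CDK inhibitor genes Cdkn1b and Cdkn1a rose by 0.40 and 0.63 (adjusted p = 0.000783 and adjusted p = 0.0245, edgeR).

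Kinases and 14-3-3 proteins set the activity of WEE and CDC25: protein kinase A and CHK1 hold CDC25 back, 14-3-3 proteins bind it, and PLK1 activates it. Of 16 such genes, 4 rose and 4 fell, with a median log2 fold change of 0.03. Prkaca, a catalytic subunit of protein kinase A, rose from 15.8 and 12.7 CPM to 28.9 and 29.9 CPM (log2 fold change 1.05 ± 0.08; adjusted p = 1.36e-10, edgeR). Chek1 rose from 365 and 373 to 427 and 437 CPM (0.23 ± 0.03; adjusted p = 2.02e-06, edgeR). Plk1, the most abundant of the list at 1322 and 1315 CPM, fell to 1158 and 1130 CPM (-0.21 ± 0.03; adjusted p = 1.14e-06, edgeR), and the 14-3-3 gene Ywhab fell by 0.28 (adjusted p = 4.22e-07, edgeR).

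Phosphatases that oppose CDK1, with the Greatwall kinase (Mastl) and its substrates that restrain them, made up the fourth list. Of 15 genes tested, 5 rose and 2 fell, where 21.1% of all genes tested were called higher and 21.8% lower. The largest rises were those of Ppp2ca, the catalytic subunit gene of PP2A, and Ppp2r2d, a B55 regulatory subunit gene that directs PP2A to CDK1 substrates. Ppp2ca went from 31.5 and 31.7 CPM to 58.3 and 63.8 CPM (log2 fold change 0.95 ± 0.05; adjusted p = 4.29e-13, edgeR). Ppp2r2d went from 46.7 and 44.3 CPM to 84.2 and 84.8 CPM (0.89 ± 0.05; adjusted p = 4.99e-14, edgeR). These changes were close in size to that of Wee1 and in the other direction. Ppp1cc and Ppp2r1b fell by 0.38 and 0.34 on the log2 scale, and Arpp19, the most abundant of the list, rose by 0.09 ± 0.03 (adjusted p = 0.0106, edgeR). Exons of Ppp2ca overlap the opposite-strand gene 9430098F02Rik over 39.9% of their length, but that gene had 0 counts. Those of Ppp2r2d overlap Mapk1ip1 over 3.3%, and Mapk1ip1 had 17693 to 34919 counts per library, so Ppp2r2d reads there cannot be assigned with certainty if strand was not used. Exons of Ppp2r1b overlap Sik2 on the opposite strand over 22.2%.

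Destruction of B cyclins by the anaphase-promoting complex, and of WEE1 and CDC25A by ubiquitin ligases, was covered by 18 genes. Of these, 6 rose and 5 fell, with a median log2 fold change of 0.05. Ube2s, the chain-elongating E2 enzyme gene and the most abundant of the list, rose from 512 and 499 CPM to 616 and 621 CPM (0.29 ± 0.03; adjusted p = 1.71e-08, edgeR), and the subunit gene Cdc27 rose by 0.27 (adjusted p = 6.27e-07, edgeR). Fzr1, whose product CDH1 keeps cyclin B1 low during the arrest, fell from 235 and 223 CPM to 178 and 175 CPM (-0.38 ± 0.04; adjusted p = 4.47e-09, edgeR), and the subunit gene Anapc5 fell by 0.37 (adjusted p = 4.5e-09, edgeR).

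**Figure D5:**
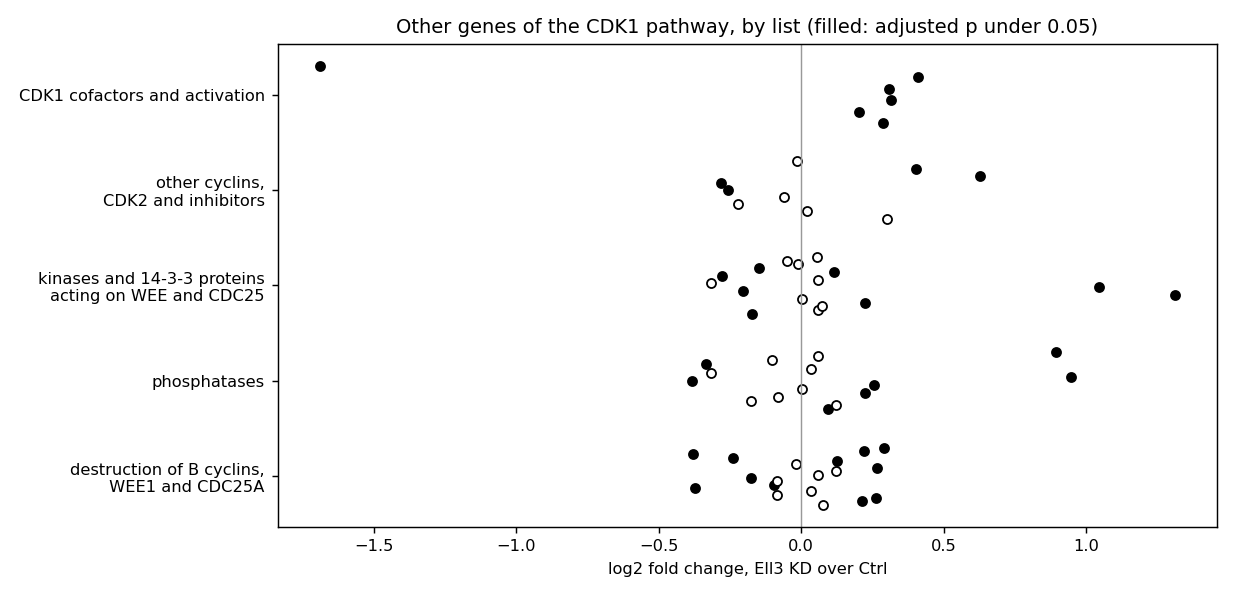
Log2 fold changes of Ell3 KD over Ctrl for the 64 genes tested of the 5 pathway lists, one point per gene, filled where the edgeR adjusted p was under 0.05. In the top list 5 of 6 genes lie to the right of 0 and Spdya lies at -1.69, and in the phosphatase list Ppp2ca and Ppp2r2d stand apart at 0.95 and 0.89.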

How the data were processed

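Counts of 4 libraries from mouse GV oocytes were used, 2 Ctrl and 2 Ell3 KD, grouped by sample title. The deposited values are raw counts for each gene symbol. The tools the authors list in the submitters' processing notes are HISAT2 2.2.1.0, featureCounts and FastQC 0.11.5, with build mm10. Annotation, strand setting and handling of multi-mapping reads: not given in the sources used here.

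All 4 libraries entered 1 fit without covariates by edgeR 4.0.16 under R 4.3.3 (two-sided glmQLFTest after filterByExpr and TMM), with Benjamini-Hochberg adjustment over 17879 genes and a threshold of 0.05. Standard errors are the log2 fold change over the square root of F. The 10 genes and the lists were chosen with earlier results of these data known. The text names Ell3, the 10 genes, and from each list the 2 called genes of smallest p in each direction and the most abundant gene, the 5 genes most like Wee1, and copies or overlapping genes. Cdk7, Ccnh, Mnat1 and all markers given by name, called or not, were named outside this rule, after their values were seen. Alternatives were RLE, upper-quartile or no scaling factors, no low-count filter, DESeq2 1.42.0, limma-voom (limma 3.58.1), glmTreat, an assumed coefficient of variation of 0.2, a replicate block, and each library left out. Coordinates, lengths and overlaps came from GENCODE M21 (GRCm38). TPM used 1 length per symbol, for the order of genes within libraries and for the places, family shares and ratios compared between groups. Close copies were found with BLAST 2.17.0. The procedure was tested on simulated counts of 17879 genes for Ell3 KD against Ctrl. Intervals cover amplification error only as far as it differed between libraries of a group, since reads carry no molecular identifiers.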

Additional observations from a re-analysis of the deposited data

How the results depend on the processing

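No gene of the 10 changed sign in the 13 alternatives. On the TPM scale (merged exon length), which is not among these, Ccnb2 and Wee2 were slightly lower in Ell3 KD, with overlapping libraries. Their means were 1385 TPM in Ctrl against 1364 in Ell3 KD, and 398 against 391. The direction of these 2 small changes thus depended on the scaling. Ccnb1 was lower on both scales, but its libraries overlapped in CPM only. In TPM it was at 2205 and 2124 in Ctrl and at 1994 and 2016 in Ell3 KD. With the other lengths the Ccnb1 groups did not overlap either. Ell3, Wee1 and Wee2 kept their side of the threshold in all 13, Cdc25a and Ccnb1 in 12, Cdk1, Pkmyt1 and Cdc25b in 11, Ccnb2 in 10, Ccnb3 in 8 and Cdc25c in 4. The number of the 10 called was 7, and was lower with any 1 library left out, where a smaller share of all genes was called too. It was 2 with glmTreat at 1.2-fold and 1 with a coefficient of variation set to 0.2. For the pathway lists 36 became 8 and 5. Both settings call fewer genes by construction. Over all genes, 7676 were called, against 2751 and 1964 under these settings. With library totals alone the median log2 fold change of all genes was -0.0418 against -0.0024. The replicate block called 8 of the 10 genes and 37 of the pathway genes, against 44.1% of all genes. Deviations of same-numbered libraries correlated at 0.0548 over 9704 genes, and the labels state no pairing, so the numbers were not taken to pair the libraries; the block changed no call of the 10 other than that of Ccnb2. With 2 libraries per group a change under 1.2-fold rests on the small spread between libraries.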
